A study of Homo sapiens with 6 samples.

Results

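ATF4, ATF5, ATF3, DDIT3, TRIB3, CHAC1, NUPR1, ASNS, SESN2 and DDIT4 form the transcriptional core of the integrated stress response, and they were followed here in Hep3B cells as 10 of the 23228 genes in the deposited count tables. They were picked by symbol as known members of the pathway, with earlier results of these data known. All 10 passed the filter on low counts, which left 14537 genes for testing. Hep3B, grown here in RPMI medium, is a line of human hepatocellular carcinoma cells. The 3 control libraries came from cells given a lentivirus with a non-targeted shRNA, a hairpin RNA that matches no human transcript. The 3 libraries labelled PELP1-KD came from cells given a lentivirus with an shRNA against PELP1, a scaffold protein of the Rix1 complex that matures the large ribosomal subunit. Their titles name PELP1-shRNA1, while the treatment text also lists PELP1-shRNA2. Puromycin-selected clones were pooled, and the labels do not say whether the replicates were separate cultures, so the p values measure only the spread between these libraries.

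The integrated stress response is a shared answer to amino acid shortage, unfolded protein in the endoplasmic reticulum, viral RNA, haem shortage and mitochondrial damage. Kinases that sense these conditions phosphorylate the initiation factor eIF2, which slows most translation but favours translation of the ATF4 mRNA through short upstream reading frames. The ATF4 protein then enters the nucleus, pairs with other bZIP proteins and switches on genes for amino acid supply, feedback and, if stress persists, cell death. Because much of this control acts on translation and on protein stability, mRNA levels of ATF4 and of the kinases do not report the activity of the pathway directly. In bulk RNA, a response in fewer cells and a weaker response in each cell cannot be told apart.

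The libraries held 26758363 to 34456542 reads on genes. PELP1 itself was only slightly lower in PELP1-KD, at 94.5% of control (log2 fold change −0.08, 95% interval −0.20 to 0.03, edgeR adjusted p = 0.101), so each direction below is that of the labels. These files hold RNA and give no PELP1 protein level. With the replicate number as a block, which pairs libraries of the same number, PELP1 was called lower (adjusted p = 0.0106), but with that block and a GC and length correction its log2 fold change was −0.0059. All 8 hepatocyte markers looked up were detected, with ALB, AFP, APOB and SERPINA1 among them. Of 10 markers of other cell types, 6 had at most 10 reads in any library, and KRT5 was at 0 in all. Of the 8 hepatocyte markers, 6 were called lower, with ALB at 65.4% of its control mean, and 2 higher, AFP (1.54-fold) and HNF4A (1.18-fold). The summed hepatocyte markers, mostly ALB and AFP, ran from 801227 to 814490 normalized reads in control and from 685995 to 702950 in PELP1-KD. The other 4 markers of other cell types were the macrophage gene CD68 and the fibroblast gene LUM, called higher (1381 to 1927 and 339 to 640 normalized reads on average), the pericyte gene PDGFRB, called lower (144 to 32.7), and the endothelial gene PECAM1, not called. The summed markers of other cell types, mostly CD68 and LUM, ran from 1880 to 2054 and from 2639 to 2733, and the part of these shifts in the results below was not tested.

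The 10 genes did not move as one group. At an adjusted p below 0.05 from edgeR, 7 were lower in PELP1-KD (ATF4, ATF3, TRIB3, CHAC1, NUPR1, ASNS and DDIT4) and 3 were higher (ATF5, DDIT3 and SESN2). Over all tested genes, 26.8% were called lower and 26.8% higher. For the 11472 genes whose mean was 100 normalized reads or more in control and also in PELP1-KD, as for all 10, these shares were 27% and 28.9%. NUPR1 and CHAC1 were the 2 genes that fell at least 2-fold, against 4.79% of all tested genes, and none rose that far, against 2.85%. The other 8 genes changed by less than 1.3-fold. The median log2 fold change of the 10 was −0.16, beside 0.00 for all tested genes. In every one of the 10 genes the 3 values of one group lay above all 3 of the other, which was also true of 58.8% of all tested genes.

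**Figure D1:**
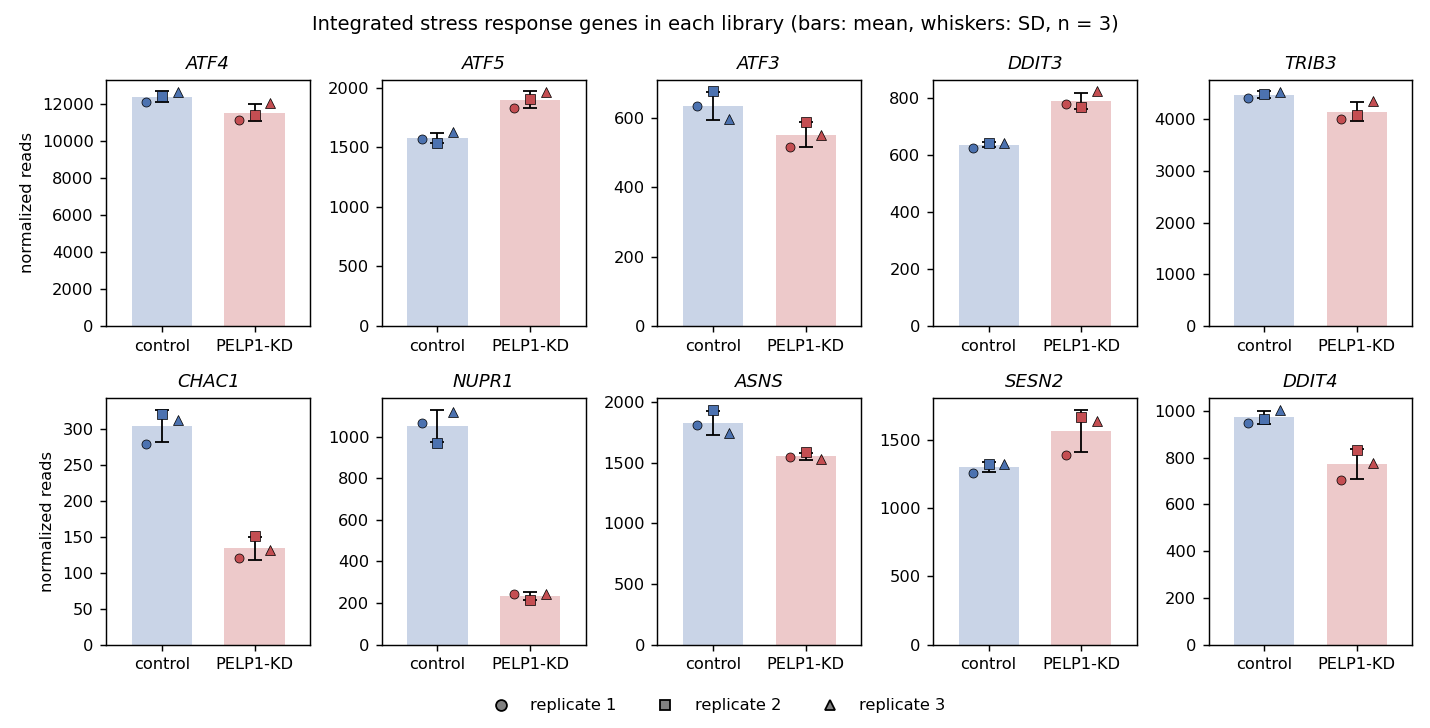
Normalized reads (vertical axis, from 0) of the 10 genes in each library, with control in blue and PELP1-KD in red. Bars are means, whiskers are SD (n = 3) and marker shapes are replicate numbers. NUPR1 falls from 969 to 1122 reads in control to 212 to 245 in PELP1-KD, while the groups of ATF4, ATF3 and TRIB3 almost touch.

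ATF4 encodes the bZIP transcription factor at the centre of the response, and in hg19 its position is chromosome 22, 39916569 to 39918691, plus strand. It had 12113, 12447 and 12675 normalized reads in the control libraries, that is, reads divided by the relative library size. In the PELP1-KD libraries it had 11132, 11441 and 12070. The groups did not overlap, but only 43.8 reads separated the lowest control value from the highest PELP1-KD value, less than the SD of either group (282 and 478 reads, n = 3 each). On the log2 scale PELP1-KD minus control was −0.10 (95% interval −0.20 to −0.01, standard error 0.04, edgeR adjusted p = 0.0179), which is 93.0% of control. The call depended on the libraries used. It was lost in 4 of the 6 fits that left out 1 library, those without PELP1-KD replicate 1, PELP1-KD replicate 2, control replicate 2 or control replicate 3, with an adjusted p of up to 0.0807. Some ATF4 reads were shared with other places in the genome, since its value was not whole in 4 libraries. The number of such reads was not measured. Values were also not whole for TRIB3 in 3 libraries, ASNS and ATF5 in 2 each and ATF3 in 1.

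ATF5, ATF3 and DDIT3 encode bZIP factors that act downstream of ATF4 or beside it. ATF5, on chromosome 19 from 50431959 to 50437193, is translated under eIF2 phosphorylation much as ATF4 is and takes part in the mitochondrial stress response. It had 1568, 1537 and 1625 normalized reads in control and 1831, 1903 and 1967 in PELP1-KD. Every PELP1-KD value lay at least 205 reads above the highest control value, a gap of 3.01 times the larger SD. The log2 fold change was 0.27 (standard error 0.05, adjusted p = 6.23e-05 from edgeR). ATF5 shares 74 of its 2375 exon bases with MIR4751, where reads were divided between both.

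DDIT3 encodes CHOP, a bZIP factor that is known for driving cell death genes when stress persists, and it lies on chromosome 12 from 57910371 to 57914300 on the minus strand. It had 626, 641 and 641 normalized reads in control and 778, 770 and 823 in PELP1-KD. The control values were nearly equal, with an SD of 8.67 reads (n = 3), and the PELP1-KD values started 129 reads above them. Its log2 fold change of 0.31 (standard error 0.06, 95% interval 0.15 to 0.48, adjusted p = 0.000154) was the largest rise of the 10 genes as fitted. The order of the 3 rises was not fixed, since SESN2 (0.35) was above DDIT3 (0.33) without PELP1-KD replicate 1, and ATF5 (0.33) and SESN2 (0.32) were above DDIT3 (0.30) with the replicate block and the GC and length correction. The 95% intervals of DDIT3 and ATF4 did not overlap.

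ATF3, on chromosome 1 from 212738697 to 212794116, encodes a bZIP factor that mostly represses transcription and responds to many stresses. It had 633, 677 and 596 normalized reads in control and 517, 589 and 550 in PELP1-KD. The 2 groups were separated by only 6.95 reads, against SDs of 40.3 and 36.2 reads (n = 3 each). The log2 fold change was −0.20 (standard error 0.07, adjusted p = 0.0201), and it was not called without PELP1-KD replicate 1 or without control replicate 2, where the adjusted p reached 0.114.

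**Figure D2:**
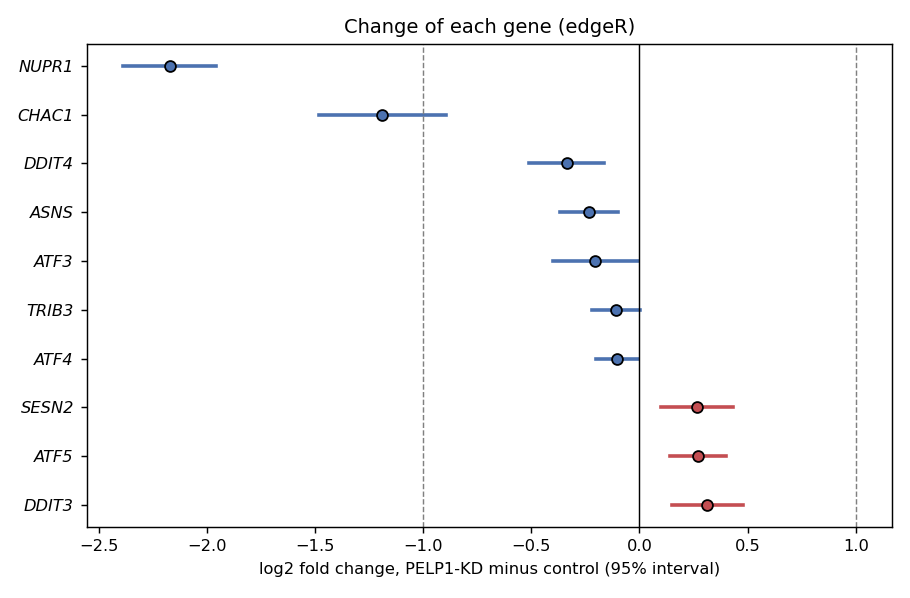
Log2 fold change of PELP1-KD minus control (horizontal axis) for each gene with its 95% interval on 4 degrees of freedom; red is higher and blue is lower in PELP1-KD, and dashed lines mark a 2-fold change. NUPR1 at −2.17 and CHAC1 at −1.19 stand apart from the other 8 genes, which lie between −0.34 and 0.31.

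TRIB3, on chromosome 20 from 361308 to 378203, encodes a pseudokinase that ATF4 and CHOP induce and that in turn restrains both. TRIB3 had the second highest reads of the 10, with 4410, 4482 and 4527 normalized reads in control and 4001, 4086 and 4345 in PELP1-KD. The gap of 65.5 reads between the groups was smaller than the SD of the PELP1-KD group (179 reads, n = 3). Its log2 fold change was −0.11 (standard error 0.04, adjusted p = 0.0258). This was the largest adjusted p of the 10. The call was lost without PELP1-KD replicate 1, PELP1-KD replicate 2, control replicate 2 or control replicate 3 (adjusted p up to 0.105). It was also lost when the replicate block was joined to a loess correction on GC and length, where the log2 fold change was −0.03 (adjusted p = 0.276).

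CHAC1 encodes an enzyme that breaks down glutathione and is among the most sharply induced ATF4 targets, and it lies on chromosome 15 from 41245636 to 41248717. It had 279, 321 and 312 normalized reads in control. In PELP1-KD it had 120, 151 and 131, and the ranges were far apart. The gap between the groups was 128 reads, or 5.74 times the larger SD. CHAC1 fell by 1.19 on the log2 scale (95% interval −1.48 to −0.90, edgeR adjusted p = 1.11e-08, standard error 0.11), to 44.0% of control. It was the gene with the fewest reads of the 10, and its coefficient of variation of 11.6% in PELP1-KD was the largest.

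ASNS encodes asparagine synthetase, which makes asparagine from aspartate and is induced when amino acids run short. It lies on chromosome 7 from 97481429 to 97501854 on the minus strand. It had 1810, 1935 and 1743 normalized reads in control and 1551, 1585 and 1528 in PELP1-KD. The PELP1-KD values lay within a few percent of one another, with an SD of 28.4 reads against 97.5 in control (n = 3 each), and the gap between the groups was 158 reads. ASNS fell by 0.24 on the log2 scale (standard error 0.05, adjusted p = 0.000397), to 85.0% of control.

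The promoters of CHAC1, ASNS and ATF3 are shown because ATF4 with a C/EBP partner is known to bind composite elements with the core TGATGNAA, and these are the 3 of the 10 genes with that core near a start site. The search covered both strands from 250 bases before to 50 bases after each start in RefSeq's promoter table, where 9 of the 10 genes had 1 to 3 windows each and NUPR1 had none. The core was in 3 of the 17 windows of the 10 genes and in 3.62% of all 35116 windows in that table. Windows of ATF4, DDIT3 and TRIB3 nearly coincide, so the 17 were not separate promoters. The 10 genes were also picked as known pathway members, and these shares were not tested against each other. A full cAMP response element, TGACGTCA, was found in 0 of the 17 windows and in 1.85% of all windows. The stretches below were located in hg19 by exact match and run 5′ to 3′ along the strand of the gene, with the core in capitals. It begins 209 bases before the start for CHAC1, where it lies on the opposite strand. For ASNS it begins 68 bases before 1 of 2 starts, and for ATF3 191 bases before 1 of 2 starts. The other window of ASNS and the other window of ATF3 held no match. For ATF3 the window with the core begins at 212738499 and the window without it at 212788110.
CHAC1, chr15:41245434-41245493, plus strand: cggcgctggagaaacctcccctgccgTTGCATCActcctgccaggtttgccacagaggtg
ASNS, chr7:97501755-97501814, minus strand: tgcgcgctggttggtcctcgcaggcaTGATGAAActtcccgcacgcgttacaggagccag
ATF3, chr1:212738532-212738591, plus strand: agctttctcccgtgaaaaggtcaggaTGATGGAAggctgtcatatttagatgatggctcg
All 3 of these genes were called lower in PELP1-KD, by log2 fold changes of −1.19, −0.24 and −0.20. Among the 6 other genes with a window, ATF4, TRIB3 and DDIT4 were called lower and ATF5, DDIT3 and SESN2 higher. A match describes the letters and does not show binding, and elements outside these windows were not searched.

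NUPR1 encodes a small chromatin-associated protein that is induced by many stresses and cooperates with ATF4 in the nutrient response. It lies on chromosome 16 from 28548662 to 28550495 on the minus strand. It had 1067, 969 and 1122 normalized reads in control and 245, 212 and 242 in PELP1-KD. The gap of 724 reads between the groups was 9.35 times the larger SD. NUPR1 fell by 2.17 on the log2 scale (95% interval −2.39 to −1.96, edgeR adjusted p = 9.47e-15, standard error 0.08), to 22.1% of control, or 4.51-fold lower. This was the largest change of the 10 genes, and its interval did not overlap that of CHAC1. None of its 912 exon bases is shared with another gene on its strand and its values were whole in all 6 libraries.

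SESN2 and DDIT4 encode inhibitors of mTORC1, the kinase complex that drives growth when amino acids are present, and they moved in opposite directions. SESN2, on chromosome 1 from 28585963 to 28609002, encodes a leucine sensor. It had 1258, 1325 and 1324 normalized reads in control and 1391, 1670 and 1638 in PELP1-KD. PELP1-KD replicate 1 was closer to the control values than to the other two, so the group SD was 152 reads against 38.4 in control (n = 3 each). SESN2 rose by 0.27 on the log2 scale (95% interval 0.10 to 0.43, standard error 0.06, adjusted p = 0.000967).

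DDIT4, on chromosome 10 from 74033677 to 74035797, encodes REDD1, which also responds to hypoxia and glucocorticoids. It had 948, 964 and 1004 normalized reads in control and 704, 833 and 775 in PELP1-KD. The PELP1-KD values spread over a coefficient of variation of 8.37%, against 2.94% in control, and still lay 115 reads below the lowest control value. DDIT4 fell by 0.34 on the log2 scale (95% interval −0.51 to −0.16, standard error 0.06, adjusted p = 0.000135), to 79.3% of control. The 95% intervals of SESN2 and DDIT4 did not overlap.

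In 6 of the 10 genes the gap between the groups was larger than the SD of either group. Over the 10 genes the coefficient of variation ran from 1.32% to 7.36% in control and from 1.82% to 11.6% in PELP1-KD. In 4 genes, ATF4, ATF3, TRIB3 and SESN2, the gap between the groups was below the larger SD. PELP1-KD replicate 1 had the lowest value of its group in 7 of the 10 genes, replicate 2 in 2 and replicate 3 in 1. The counts of gaps and of lowest values were not computed over all tested genes, so they describe the 10 genes only.

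**Figure D3:**
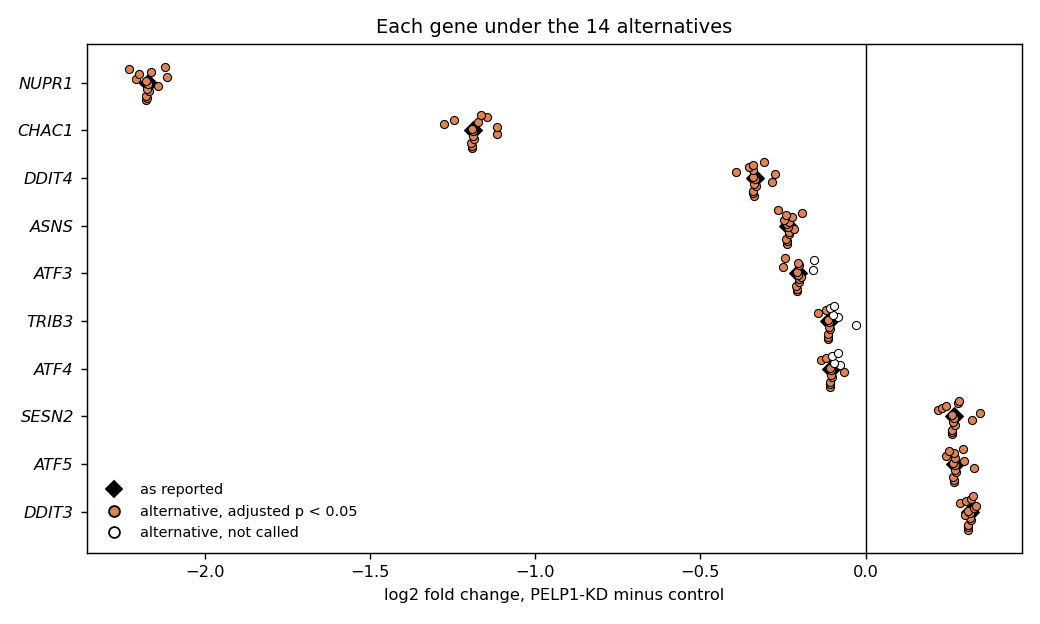
Log2 fold change of PELP1-KD minus control (horizontal axis) of each gene as reported (black diamonds) and under 14 alternatives of processing or of libraries used (circles, filled at an adjusted p below 0.05 and open otherwise). All circles of a gene lie on the same side of 0, and open circles occur for ATF3, TRIB3 and ATF4.

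Levels were compared between genes per length of exon, as RPKM, reads per kilobase of exon scaled to 1000000 library reads. ATF4 was by far the highest, with 195 ± 4.44 RPKM in control (SD, n = 3) and 182 ± 7.52 in PELP1-KD. TRIB3 followed in both groups with 58.0 ± 0.766 and 53.8 ± 2.32 RPKM. NUPR1 was the third in control with 36.7 ± 2.70 RPKM and eighth in PELP1-KD with 8.13 ± 0.623. CHAC1 was ninth in control with 6.20 ± 0.455 RPKM and last in PELP1-KD with 2.73 ± 0.318. The remaining genes lay between 6.11 RPKM (ATF3) and 23.0 RPKM (ASNS) in control. Neighbours in this order that did not differ beyond their spread were DDIT4 with DDIT3 and CHAC1 with ATF3 in control, and SESN2 with DDIT4 in PELP1-KD. ASNS was above ATF5 and DDIT3 in control (23.0, 21.1 and 17.2 RPKM) and below both in PELP1-KD (19.6, 25.5 and 21.4 RPKM), with no overlap of the ranges of ASNS and either gene in either group.

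**Figure D4:**
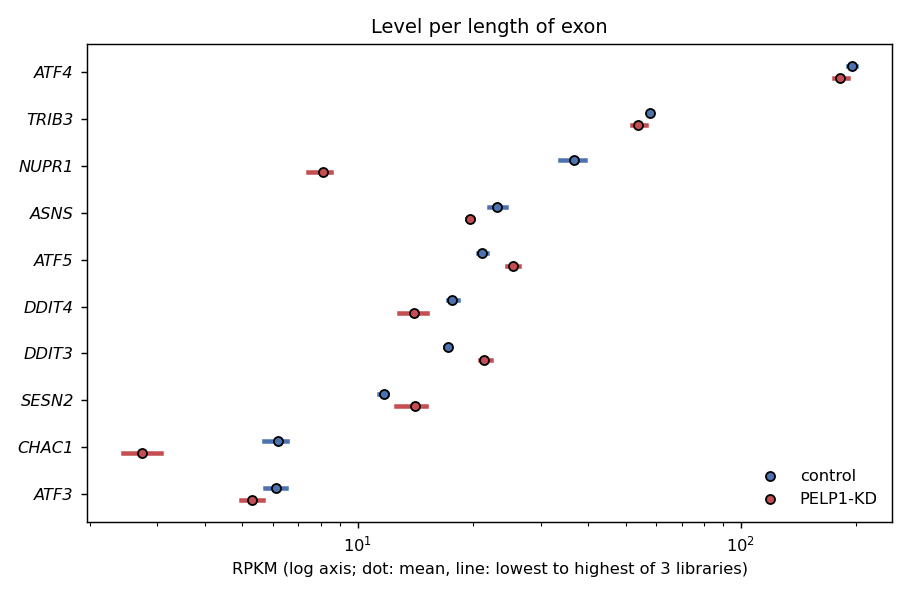
RPKM on a log axis of the 10 genes in control (blue) and PELP1-KD (red), where dots are means and lines run from the lowest to the highest of 3 libraries. ATF4 lies near 195 and 182 RPKM, above all others, and NUPR1 drops from 36.7 to 8.13.

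The genes around ATF4 were read from lists of known pathway members, and every count below stands beside 26.8% of all tested genes called higher, 26.8% called lower and the remaining genes not called. Upstream, the 4 kinases that phosphorylate eIF2 changed by less than 1.2-fold. EIF2AK4 (GCN2, which senses uncharged tRNA) had a log2 fold change of −0.24 (adjusted p = 0.000526) and EIF2AK3 (PERK, which senses unfolded protein) of −0.15 (adjusted p = 0.0144). EIF2AK2 (PKR, which senses double-stranded RNA) was higher by 0.19 (adjusted p = 0.0385). EIF2AK1 (HRI, which senses haem and mitochondrial stress), whose RNA was the most abundant of the 4 at 77.5 RPKM in control, was not called at −0.08 (adjusted p = 0.0501). Of the 10 phosphatase subunits and kinase regulators, 3 were called higher and 2 lower, near these shares. PPP1R15A, the stress-induced phosphatase subunit GADD34 that ends eIF2 phosphorylation and is itself an ATF4 target, had 3848 ± 182 normalized reads in control and 4803 ± 207 in PELP1-KD (SD over 3 libraries). It rose by 0.32 on the log2 scale (adjusted p = 3.65e-06). Its constitutive relative PPP1R15B fell by 0.19 on the log2 scale (adjusted p = 0.00286). The adaptor gene NCK1 (0.32) and KIAA0141 (0.17), now named DELE1, which carries the mitochondrial stress signal to HRI, were higher, and DNAJC3 (−0.20), which inhibits the kinases, was lower. Of the 8 subunits of eIF2 and its exchange factor eIF2B, EIF2B4 (0.29) and EIF2B5 (0.14) were called higher and none lower. With the replicate block 4 of the 8 were called.

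The bZIP partners of ATF4 went both ways. Of the 17 besides DDIT3, 9 were called higher and 7 lower, with a median log2 fold change of 0.10. The C/EBP factors CEBPB and CEBPD, which pair with ATF4, rose by 0.58 each (adjusted p = 1.56e-10 and 1.29e-09). MAF rose by 0.97 (adjusted p = 8.39e-13). The AP-1 genes JUN (−0.36, adjusted p = 3.03e-06) and JUND (−0.20, adjusted p = 0.000823) and their relative JDP2 (−0.34, adjusted p = 0.000895) were lower.

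Of 13 genes for serine, one-carbon, proline and related amino acid synthesis, 8 were lower, 0 were higher and 5 were not called, with a median log2 fold change of −0.40 beside 0.00 for all tested genes. BCAT1 (branched-chain aminotransferase, −0.84, adjusted p = 1.59e-11), PSAT1 (the second step of serine synthesis, −0.57, adjusted p = 1.04e-10) and CBS (transsulfuration, −0.61, adjusted p = 1.05e-10) had the smallest p values. PHGDH, the first step of serine synthesis, was not called at 0.07. Of 10 tested amino acid transporters, 6 were lower and 3 higher. SLC7A1, a carrier of arginine and lysine, had 1752, 1707 and 1790 normalized reads in control and 619, 600 and 587 in PELP1-KD. Its log2 fold change of −1.54 (95% interval −1.68 to −1.39, adjusted p = 4.34e-15 from edgeR) was the only 2-fold change of this list. SLC1A4 (−0.76) and SLC7A5 (−0.23) were lower, and SLC3A2 (0.24), the shared heavy chain of SLC7A5 and SLC7A11, was higher, as was SLC38A1 (0.13). SLC6A9 was also called higher at 0.22 (95% interval −0.03 to 0.47, edgeR adjusted p = 0.0432). Of 13 genes for aminoacyl-tRNA synthetases and tRNA export, 8 were lower and 2 higher, with a median of −0.14. GARS, IARS and SARS, which charge glycine, isoleucine and serine tRNAs, fell by 0.26, 0.27 and 0.33, and NARS (0.17) and AARS (0.16) rose.

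Other ATF4 and CHOP targets did not share 1 direction. Among 10 tested genes for secreted and signalling proteins, 5 were higher and 3 lower. INHBE is a hepatokine gene of the activin family that amino acid stress induces. It had 835, 928 and 924 normalized reads in control and 380, 350 and 421 in PELP1-KD. Its log2 fold change was −1.22 (95% interval −1.42 to −1.01, edgeR adjusted p = 3.39e-11). The stress cytokine gene GDF15 (−0.38) and ADM2 (−0.22) were lower. LAMP3 (0.66), VLDLR (0.49) and STC2 (0.36) were higher. FGF21 had at most 2 reads in any library and was not tested. Among 14 apoptosis and autophagy targets, 8 were higher and 2 lower, with a median of 0.25. BCL2L11, which encodes the pro-apoptotic protein BIM, rose by 0.89 (adjusted p = 8.19e-12), and the autophagy genes SQSTM1 and ATG16L1 by 0.32 and 0.50. ERO1L, an oxidase of the endoplasmic reticulum, and CARS2, a mitochondrial tRNA synthetase placed in this list, fell by 0.37 and 0.36. Hypoxia targets were read because DDIT4 also answers to low oxygen. Of 12 other tested hypoxia targets, 4 were higher and 3 lower, near the shares of all genes, with NDRG1 (0.50), VEGFA (0.25) and P4HA1 (0.18) higher and SLC2A1 (−0.73), EGLN1 (−0.20) and the rare CA9 (−1.13, from 27.9 to 12.7 normalized reads) lower.

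The parallel arms of the unfolded protein response, run by ATF6 and XBP1, were lower or not called. Of 17 genes, 9 were lower, 0 were higher and 8 were not called, with a median log2 fold change of −0.18. The chaperone and isomerase genes PDIA4 (−0.40, adjusted p = 9.42e-10) and HSPA5 (BiP, −0.33, adjusted p = 5.55e-09) and XBP1 itself (−0.27, adjusted p = 2.05e-07) had the smallest p values. The sensors ATF6 (−0.04, adjusted p = 0.491) and ERN1 (−0.17, adjusted p = 0.21) were not called.

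Of 11 tested paralogs and related factors of the 10 genes, 2 were higher, 2 were lower and 7 were not called. With the replicate block 6 of the 11 were called. DDIT4L, the paralog of DDIT4, rose by 0.94 (adjusted p = 1.76e-08) where DDIT4 fell. SESN3 fell by 0.33 (adjusted p = 0.00418) where SESN2 rose, and SESN1 was not called at 0.18 (adjusted p = 0.0799). TRIB1 (0.00, adjusted p = 0.986) and CHAC2 (0.14, adjusted p = 0.256) were not called. ATF7, a relative of ATF2, was higher by 0.14 (adjusted p = 0.0175).

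**Figure D5:**
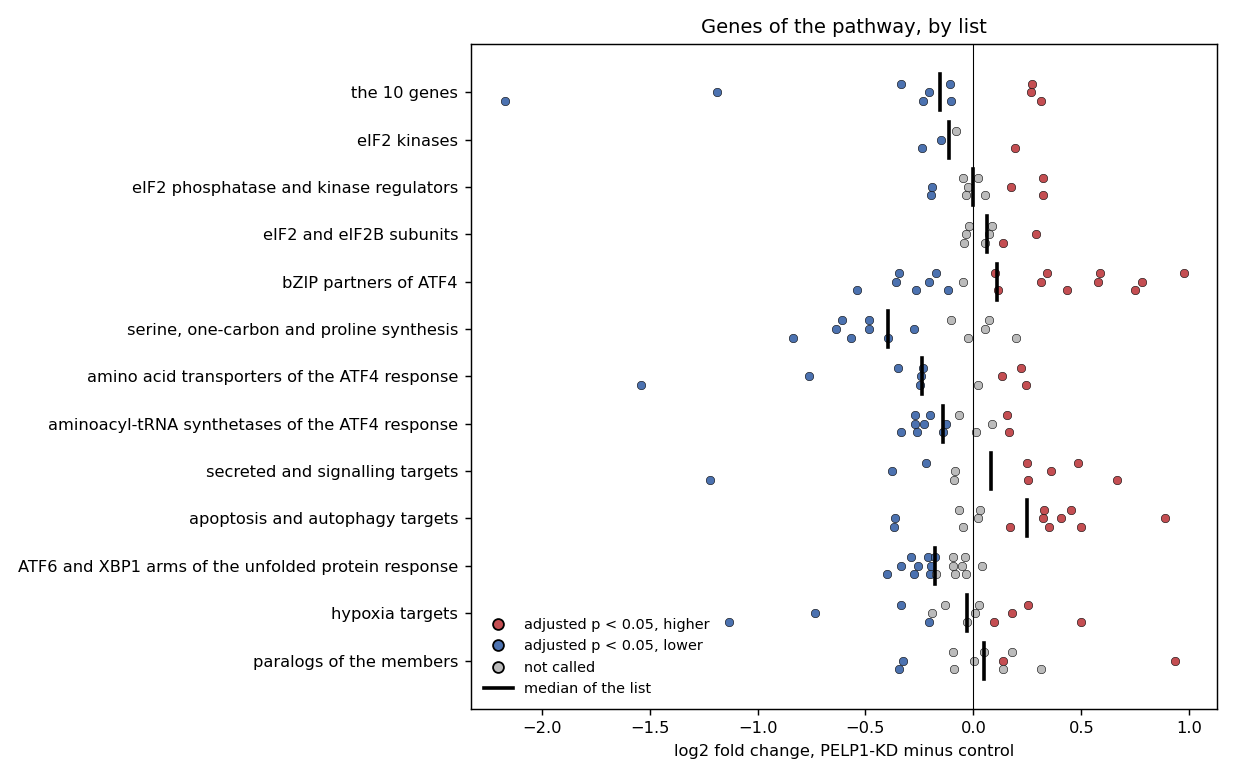
Log2 fold change of PELP1-KD minus control (horizontal axis) for each tested gene of the 10 and of 12 lists around ATF4 (rows), where red and blue points were called higher and lower at an adjusted p below 0.05, gray points were not called and black ticks are list medians. The lists of amino acid synthesis (median −0.40) and of the ATF6 and XBP1 arms (median −0.18) hold no red point.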

How the data were processed

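RNA of 3 control and 3 PELP1-KD Hep3B libraries was analysed, grouped by their labels. The authors deposited estimated counts per gene without normalization, 1 table per library. Per the file headers, these come from featureCounts 1.5.0-p1 on the hg19 RefSeq annotation, by strand, with a mapping quality of at least 2 and reads of several places or genes divided as fractions. The submitters' processing notes name HISAT2 for alignment, while the methods name TopHat2 and HTSeq. The sources also differ on the RNA kit and on single or paired reads.

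Counts were rounded. edgeR 4.0.16 in R 4.3.3 was used (filterByExpr, TMM, robust glmQLFit, glmQLFTest, Benjamini-Hochberg over all tested genes). Standard errors were taken as the size of the log2 change divided by the root of the F statistic. Intervals use 4 degrees of freedom, fewer than the moderated test, so some called genes had an interval with values of both signs. Numbers of genes called at an adjusted p below 0.05 use all 14537 genes. In counts simulated for this comparison, with 14435 genes tested, 28 of 50 genes changed 1.2-fold, 40 of 50 changed 1.5-fold and 47 of 50 doubled were recovered. Of the unchanged genes 10 were called. Only 200 genes were changed there, far fewer than were called in the data, so these shares may not hold for the data.

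A planned gene and a planned list are not reported here. The genes and lists were chosen with earlier results of these data known. All 10 genes were named, with PELP1, the kinases and their phosphatase subunits, and from each list the 2-fold changes and up to 3 genes in each direction with the smallest p. ATF6, ERN1, PHGDH, FGF21, SESN1, TRIB1 and CHAC2 were added after their values were seen, as were the cell markers. Libraries with the same replicate number deviated together (correlations of 0.336, 0.247 and 0.666 across 6370 genes, all over 0.1), and by that criterion the numbers were taken to pair them. The pairing of replicates 1 and 2 was not distinct, since control 2 with PELP1-KD 1 gave 0.418 and control 1 with PELP1-KD 2 gave 0.244. The fit as reported did not use the pairing. As an alternative, the replicate block called 4413 of all tested genes higher and 4415 lower. Alternatives were other normalizations, DESeq2 1.42.0, other filters and thresholds, unrounded counts, the replicate block, GC and length correction (loess, span 0.3), and leaving out each library.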

Additional observations from a re-analysis of the deposited data

How the results depend on the processing

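Of the 378 values recomputed under the alternatives, 342 kept their direction and side of the threshold or, for counts, stayed within 1.5 times. Among the fold changes 0 reversed their sign. Counts of calls were not compared for direction, and those of the lists joined both directions. Each of the 10 genes was scored under 14 alternatives, which left out the 1.2-fold test and the adjusted p below 0.01. In all 14, ATF5, DDIT3, CHAC1, NUPR1, ASNS, SESN2 and DDIT4 kept their call. The 3 genes that rose had log2 fold changes of 0.22 to 0.35 when 1 library was dropped. ATF4, ATF3 and TRIB3 lost their call in 4, 2 and 5 of the 14. The replicate block alone changed no call among the 10 genes. It changed that of PELP1 (−0.083, adjusted p = 0.0106) and moved the eIF2 and eIF2B subunits from 2 to 4 called genes, also 4 with GC and length correction. With the block the paralogs moved from 4 to 6 calls, the kinases from 3 to 4 and the ATF6 and XBP1 arms from 9 to 12. Against a 1.2-fold change (glmTreat), 1453 of all genes were called higher and 1613 lower, beside 3899 and 3889 as reported. Of the 10 genes, 0 were called higher and 2 lower. The lists kept 0 calls (eIF2 kinases, their regulators, eIF2 subunits, tRNA synthetases), 1 (paralogs), 2 (transporters, ATF6 and XBP1 arms), 3 (hypoxia targets) and 5 (secreted, apoptosis). The bZIP partners kept 7 calls, and the genes for serine, one-carbon, proline and related amino acid synthesis kept 7 of 8. At an adjusted p below 0.01, 4 of the 10 were called lower and 3 higher, beside 3055 and 2983 of all 14537 tested genes. At that threshold 1 kinase and 1 eIF2 subunit were called. With each library left out, 4 to 7 of the 10 were lower and 3 higher. Over all tested genes these fits called 3387 to 3989 lower and 3379 to 3949 higher. The eIF2 subunits had 1 to 4 calls, the paralogs 3 to 7 and PELP1 a log2 fold change of −0.105 to −0.040. The count of 4 lower genes came without PELP1-KD replicate 1 or control replicate 2. Without PELP1-KD replicate 3 the eIF2 subunits had 4 calls, the paralogs 7 and PELP1 an adjusted p of 0.018. Without control replicate 1 the eIF2 subunits had 1. A fit that left out a library kept 2 libraries in that group. The standard error was largest for CHAC1, with the fewest reads of the 10, at 0.11, and smallest for ATF4 at 0.04. It did not follow reads throughout, at 0.059 for DDIT3 (636 normalized reads in control) and 0.077 for NUPR1 (1053). The parts of depth and of spread between libraries were not tested.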
